A study of Mus musculus with 12 samples.

Results

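Foxp1, Foxp3, Foxp4, Foxo1 and Foxo3 encode transcription factors of the forkhead (Fox) family. Their members here are all probe sets whose platform annotation names exactly 1 gene and that gene is one of these 5. That rule gave 19 of the 45037 probe sets tested: 8 for Foxp1, 1 for Foxp3, 3 for Foxp4, 4 for Foxo1 and 3 for Foxo3. Expression was measured on Affymetrix arrays in T cells sorted from mouse spleens, and the series asked how Treg expression relative to Tconv compares between 2 strains, where Treg are regulatory and Tconv conventional T cells. The groups were NOD Treg, NOD Tconv, B6.H2g7 Treg and B6.H2g7 Tconv, with 3 arrays each, 12 in all. NOD mice develop autoimmune diabetes, and B6.H2g7 mice carry the MHC haplotype of NOD, H2g7, on the B6 background, so both strains share that haplotype. Every mouse was 6 weeks old, and each array took RNA pooled from 3 mice, so an array gives no spread between animals. Treg were sorted as CD4+ cells with high CD25 and Tconv as CD4+ cells without CD25, after cells with CD8a, CD11b, CD69 or B220 were excluded.

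Forkhead proteins share a winged-helix domain that binds DNA. FOXP3 is the lineage factor of regulatory T cells: loss of its function causes fatal autoimmunity in mice, and it both raises and lowers the transcription of its target genes. FOXP1 helps to keep naive T cells quiescent, and FOXP proteins can bind one another. FOXO1 and FOXO3 drive genes of quiescence and homing while they are in the nucleus, and phosphorylation by AKT, downstream of PI3K, moves them to the cytoplasm, so that their activity can differ with no difference in their RNA.

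Treg marker genes followed the labels of the sorted cells. They were Foxp3, Il2ra, Ikzf2, Ctla4 and Tnfrsf18. Foxp3 is itself a member here and Il2ra encodes CD25, the sorting marker, so this is no independent check of the labels. Summed over the 5 Treg markers, the log2 intensity lay between 13.56 and 13.94 in NOD Treg, 10.76 and 11.05 in NOD Tconv, 13.56 and 14.09 in B6.H2g7 Treg, and 10.12 and 10.37 in B6.H2g7 Tconv. All 8 T cell markers were measured above the dim range in every group. Their sum was lower in Treg, with 14.18 to 14.32 in NOD Treg against 14.41 to 14.61 in NOD Tconv. In B6.H2g7 it was 14.239 to 14.245 in Treg against 14.29 to 14.42 in Tconv. Averaged over both strains, Cd5 rose by 0.66 (limma, adjusted p = 0.000194). Cd4 fell by 0.40 (adjusted p = 0.0262) and Trat1 by 0.39 (adjusted p = 0.00558), and the other T cell markers were not called. Sums over 7 measured B cell markers lay between 9.54 and 9.86, and over 6 monocyte and macrophage markers between 9.40 and 9.66, with the groups overlapping. Of these B cell markers, Cd79b, which encodes a B cell receptor chain, moved with the cell types: it averaged 7.16 in NOD Treg, 6.41 in NOD Tconv, 7.02 in B6.H2g7 Treg and 6.18 in B6.H2g7 Tconv, a rise of 0.79 in the average (limma, adjusted p = 1.56e-05), and the other 6 were not called. Its part in the results was not tested. Of the 6 monocyte and macrophage markers only Itgam, which encodes CD11b, had group means in the dim range, in all 4 groups. Cd8a, which encodes another marker excluded in the sort, lay above the dim range in every group. It averaged 7.29 in NOD Treg, 7.40 in NOD Tconv, 7.62 in B6.H2g7 Treg and 7.59 in B6.H2g7 Tconv. The median intensity per array was 83.9 to 88.6. The actin control difference, the log2 intensity of its 3' minus its 5' probe set, which grows as RNA is shortened, was 2.66 to 4.70.

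The promoters of Foxp3 and Foxo1 are shown because Foxp3 differed most between the groups and Foxo1 least, by the brightest probe set of each gene. The sequences are RefSeq's for the build GRCm38.p6, from 250 bases before to 50 bases after an annotated transcription start, 5′ to 3′ on the gene's strand. Capitals mark 2 motifs, the forkhead core TAAACA and the TATA box TATAAA, each searched on both strands, with no overlap between matches.
Foxp3, first start, chrX:7579426-7579725, + strand: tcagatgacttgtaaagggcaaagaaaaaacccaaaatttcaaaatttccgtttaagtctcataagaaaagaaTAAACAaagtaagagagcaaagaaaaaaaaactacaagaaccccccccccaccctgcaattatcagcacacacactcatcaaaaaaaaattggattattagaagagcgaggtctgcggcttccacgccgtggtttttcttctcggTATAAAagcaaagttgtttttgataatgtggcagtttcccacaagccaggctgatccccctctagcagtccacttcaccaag
Foxp3, second start, chrX:7580233-7580532, + strand: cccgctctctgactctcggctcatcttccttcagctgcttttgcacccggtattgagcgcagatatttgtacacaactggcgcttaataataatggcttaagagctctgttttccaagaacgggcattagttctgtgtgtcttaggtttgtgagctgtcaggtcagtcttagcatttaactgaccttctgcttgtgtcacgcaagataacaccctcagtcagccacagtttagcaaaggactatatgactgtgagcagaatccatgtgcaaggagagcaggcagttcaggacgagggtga
Foxo1, chr3:52268087-52268386, + strand: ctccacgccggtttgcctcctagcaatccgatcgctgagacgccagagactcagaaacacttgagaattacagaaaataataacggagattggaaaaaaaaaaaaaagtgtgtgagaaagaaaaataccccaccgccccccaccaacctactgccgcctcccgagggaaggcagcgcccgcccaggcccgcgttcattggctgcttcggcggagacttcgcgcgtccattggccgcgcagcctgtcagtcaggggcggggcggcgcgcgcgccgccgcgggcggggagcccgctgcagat

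All 5 genes matched the RefSeq table by symbol, with 8 promoters among them. The first Foxp3 promoter holds the forkhead core at -177 and the TATA box at -32, counted at the first base of the motif with the base before the start as -1. The second Foxp3 promoter and the Foxo1 promoter hold neither motif. Of the 8 promoters, 4 hold the forkhead core, against 13.4% of all 32851 promoters of the same length, and 1 holds the TATA box, against 13.6% of them. The other 3 with a forkhead core are those of Foxp1, at 3 starts on chromosome 6. The Foxp3 promoters have 6 and 8 CpG dinucleotides, close to the median of 7 over all promoters. Foxo1 has 31, Foxp4 33 and Foxo3 35, and the 3 Foxp1 promoters have 13, 5 and 44. Letters of a motif in a window are a description and show no binding.

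Foxp3 was the member that separated Treg from Tconv. Its 1 probe set, 1420765_a_at, had log2 intensities of 10.67, 11.22 and 11.26 in NOD Treg, against 5.57, 5.92 and 6.24 in NOD Tconv. In B6.H2g7 mice it had 10.69, 11.22 and 11.08 in Treg, against 5.58, 5.63 and 5.83 in Tconv. Every Treg array lay above every Tconv array, and within a cell type the 2 strains overlapped. In NOD, Foxp3 averaged 11.05 ± 0.33 in Treg and 5.91 ± 0.33 in Tconv (SD, n = 3 each), a rise of 5.14 ± 0.20 on the log2 scale (SE, 95% interval 4.71 to 5.57) or 35.3-fold (limma, adjusted p = 2.28e-08). In B6.H2g7 it averaged 11.0 ± 0.27 in Treg and 5.68 ± 0.14 in Tconv (SD, n = 3 each), a rise of 5.32 ± 0.20 (95% interval 4.89 to 5.75) or 39.9-fold (limma, adjusted p = 1.66e-08). Averaged over both strains the rise was 5.23 ± 0.14 (limma, adjusted p = 3.15e-10), the largest increase of all tested probe sets, although this comparison uses the same arrays as the previous 2. The percentage of all probe sets called, at an adjusted p under 0.05, was 3.2 in NOD, 3.37 in B6.H2g7 and 5.84 in the average. The Tconv level of Foxp3 lay close to the dim range, defined here as a group mean under 5.28, the 25th percentile of probe set means. That range is a percentile and no detection limit. How far the Tconv level exceeds background is unknown, and the folds depend on it. In bulk RNA, fewer cells with the transcript and less transcript per cell cannot be told apart.

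Neither strain differed from the other in Foxp3 by more than the spread of the arrays. In Treg the difference of NOD minus B6.H2g7 was 0.05 (95% interval -0.38 to 0.48, limma, adjusted p = 0.986), and in Tconv it was 0.23 (-0.20 to 0.66, adjusted p = 0.796). The rise in NOD minus the rise in B6.H2g7 was -0.18 ± 0.28 (SE, -0.78 to 0.43, adjusted p = 0.966). These intervals leave room for a strain difference of up to 0.48 in Treg on the log2 scale. The percentage of all probe sets called was 3.26 for the strains in Treg, 2.96 in Tconv and 0.0933 for the difference between the rises.

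The array numbered replicate 1 had the lowest Foxp3 level of its group in all 4 groups. Per the labels, 89%, 95% and 95% of the cells of the NOD Treg replicates 1, 2 and 3 were Foxp3+, and 94%, 96% and 96% of those of B6.H2g7 Treg, so the lowest Foxp3 RNA and the lowest labelled percentage fell on the same array in both strains. The actin control difference was also lowest on these arrays, at 3.29 in NOD Treg and 2.66 in B6.H2g7 Treg, against 4.26 to 4.70 on the other Treg arrays. With this difference as a covariate, the averaged rise was 5.17, and without the 4 arrays numbered 1 it was 5.29.

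**Figure D1:**
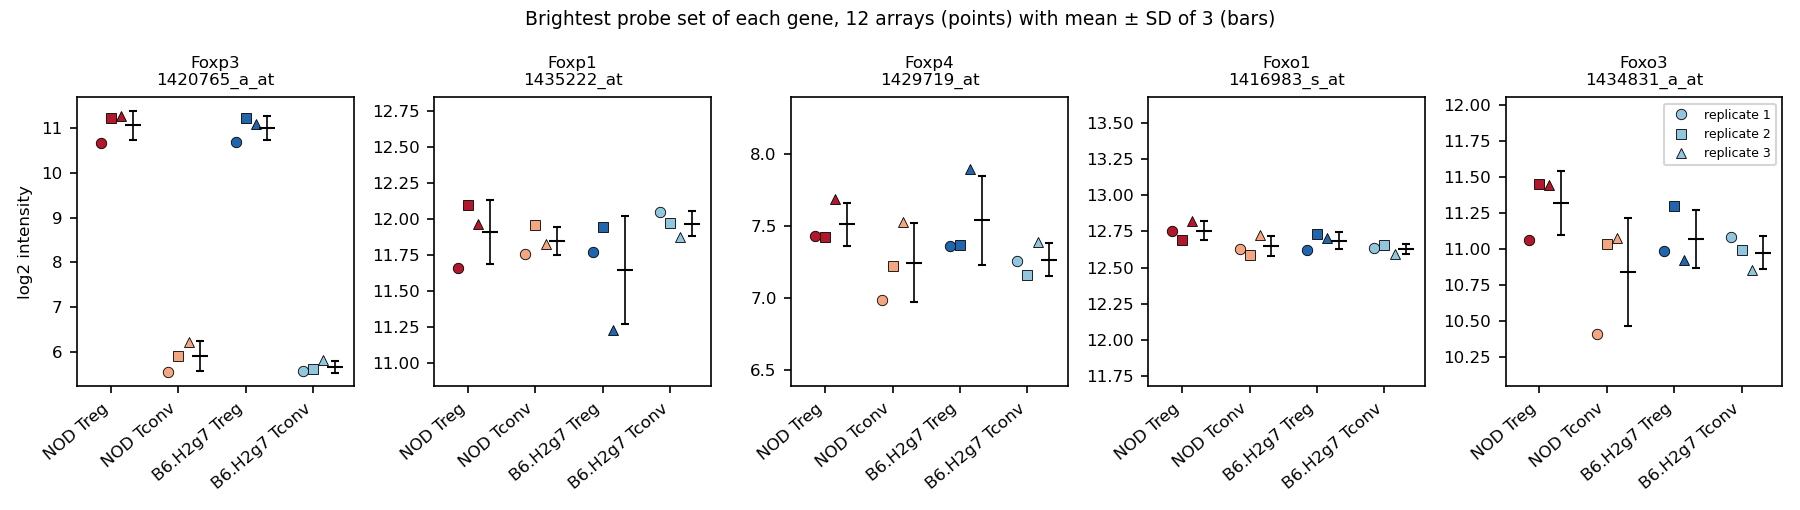
Log2 intensity (vertical axis) of the brightest probe set of each gene in the 4 groups (horizontal axis); points are arrays with a shape per replicate number, and bars are the mean ± SD of 3. The Foxp3 panel spans a wider range than the other 4, which all span 2 log2 units; Foxp3 lies near 11 in Treg and under 6.3 in Tconv, and in the other panels the Treg and Tconv arrays overlap.

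Among the other 18 member probe sets, none was called in any of the 6 comparisons by limma. At an unadjusted p under 0.05 there were 4 of the 18 in NOD Treg against Tconv, where 10.8% of all probe sets were, 1 in B6.H2g7 (11.7%) and 5 in the average (14.1%). There were 0 in each comparison of the strains, against 10.5% of all probe sets in Treg, 10.6% in Tconv and 4.54% for the difference between the steps. All 19 probe sets had group means above the dim range in every group, and their within-group SD, pooled over groups, lay between 0.06 and 0.38, against a median of 0.15 over all probe sets. The log2 differences of Treg minus Tconv of the 18 ranged from -0.35 to 0.48 in NOD and from -0.32 to 0.27 in B6.H2g7. Over these 18, the bounds of the 95% intervals reached from -0.83 to 0.86 in NOD and from -0.68 to 0.63 in B6.H2g7. Differences of a log2 unit between Treg and Tconv therefore lay outside the interval of each.

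**Figure D2:**
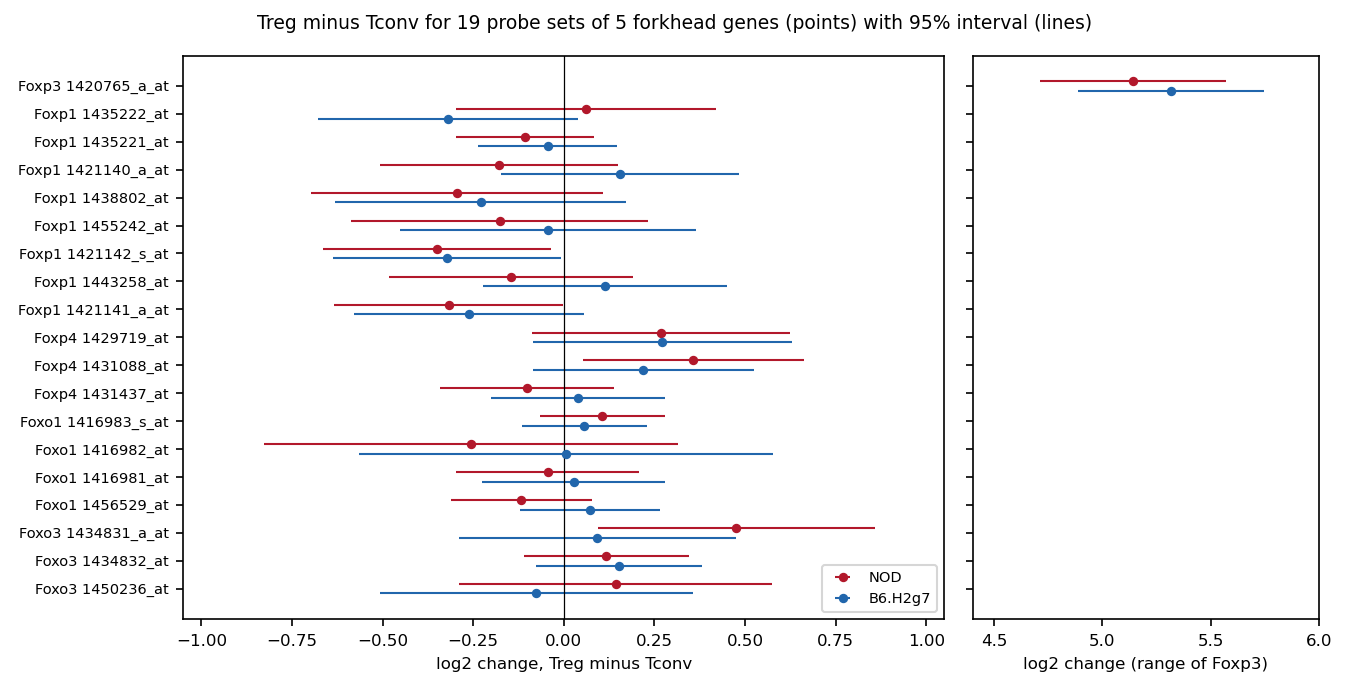
Log2 difference of Treg minus Tconv (horizontal axis) for the 19 probe sets (rows) in NOD and in B6.H2g7; points are differences of group means over 3 arrays each and lines are 95% intervals from limma. Foxp3 stands at 5.14 in NOD and 5.32 in B6.H2g7 in a panel with its own axis range, and the other 18 lie between -0.35 and 0.48.

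Foxp1 was measured by 8 probe sets, and none of them passed the test. Averaged over both strains, all 8 differences of Treg minus Tconv were below 0, from -0.34 to -0.01, but the probe sets share 1 gene and are not replicates. The brightest, 1435222_at, had 11.66, 12.10 and 11.96 in NOD Treg, against 11.76, 11.96 and 11.83 in NOD Tconv. In B6.H2g7 it had 11.78, 11.94 and 11.23 in Treg, against 12.05, 11.98 and 11.88 in Tconv. B6.H2g7 Treg replicate 3 was the lowest of the 12, and Treg and Tconv overlapped in both strains. The difference was 0.06 in NOD (95% interval -0.30 to 0.42, limma, adjusted p = 0.977) and -0.32 in B6.H2g7 (-0.68 to 0.04, adjusted p = 0.516). Without B6.H2g7 Treg replicate 3 the B6.H2g7 difference was -0.11.

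The lowest unadjusted p among the 18 belonged to another Foxp1 probe set, 1421142_s_at. It had 8.44, 8.53 and 8.43 in NOD Treg, against 9.10, 8.63 and 8.72 in NOD Tconv. The B6.H2g7 arrays read 8.13, 8.22 and 8.40 in Treg, against 8.83, 8.56 and 8.32 in Tconv. The 3 NOD Treg arrays lay below the 3 NOD Tconv arrays, while in B6.H2g7 the 2 cell types overlapped through replicate 3. The averaged difference was -0.34 ± 0.10 (SE, 95% interval -0.56 to -0.11) and missed the threshold (limma, adjusted p = 0.0881). When each array was left out in turn, it ranged from -0.40 to -0.27. The first was without B6.H2g7 Tconv replicate 3 and was called (limma, adjusted p = 0.0332). The second was without NOD Tconv replicate 1 and was not called (adjusted p = 0.187).

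The Foxp1 probe set 1421141_a_at had 6.26, 5.89 and 5.99 in NOD Treg, against 6.62, 6.23 and 6.24 in NOD Tconv. Its values in B6.H2g7 were 5.96, 5.91 and 5.62 in Treg, against 6.29, 6.04 and 5.93 in Tconv. The Treg means were lower, and the groups overlapped in both strains. The averaged difference was -0.29 ± 0.10 (SE, limma, adjusted p = 0.165), and with the actin control difference as a covariate it was -0.26 and was called (adjusted p = 0.0484). For 1438802_at it was -0.26 ± 0.13 (SE, adjusted p = 0.418), and for the remaining 4 probe sets, 1435221_at, 1455242_at, 1443258_at and 1421140_a_at, it was -0.08, -0.11, -0.02 and -0.01. Probe sets of a gene can read different transcripts or parts of a transcript, and the probe sequences were not used here. Over the 12 arrays, pairs of Foxp1 probe sets correlated with r from -0.35 to 0.78, with a median of 0.41 over 28 pairs, a description of probe sets that share arrays and groups.

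Foxp4, a forkhead factor that can pair with FOXP1, was measured by 3 probe sets. The brightest, 1429719_at, had 7.43, 7.42 and 7.68 in NOD Treg, against 6.98, 7.22 and 7.53 in NOD Tconv. In B6.H2g7 it had 7.36, 7.36 and 7.89 in Treg, against 7.26, 7.16 and 7.38 in Tconv. The groups overlapped in both strains. The difference was 0.27 in both strains (95% intervals -0.09 to 0.62 in NOD and -0.08 to 0.63 in B6.H2g7, limma, adjusted p = 0.685 in NOD and 0.615 in B6.H2g7).

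The probe set 1431088_at of Foxp4 had 7.39, 7.59 and 7.76 in NOD Treg, against 7.11, 7.23 and 7.33 in NOD Tconv. The B6.H2g7 arrays read 7.21, 7.35 and 7.75 in Treg, against 7.12, 7.19 and 7.34 in Tconv. The NOD groups did not overlap and the B6.H2g7 groups did. The NOD difference was 0.36 ± 0.14 (SE, 95% interval 0.05 to 0.66) and was not called (limma, adjusted p = 0.329). With the replicate number as a block it was called (limma, adjusted p = 0.0424). That block was fitted over all 12 arrays. By the correlation of deviations, the numbers were taken to pair the NOD arrays but not those of B6.H2g7 Treg and Tconv. The block is therefore one more setting here. In B6.H2g7 the difference was 0.22 (-0.09 to 0.52, adjusted p = 0.647), and the difference between the strains was 0.14 (-0.29 to 0.57, adjusted p = 0.966). The remaining Foxp4 probe set, 1431437_at, differed by -0.10 in NOD and 0.04 in B6.H2g7. Over the 12 arrays 1429719_at and 1431088_at gave the highest correlation of the 3 Foxp4 pairs, r = 0.88.

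**Figure D3:**
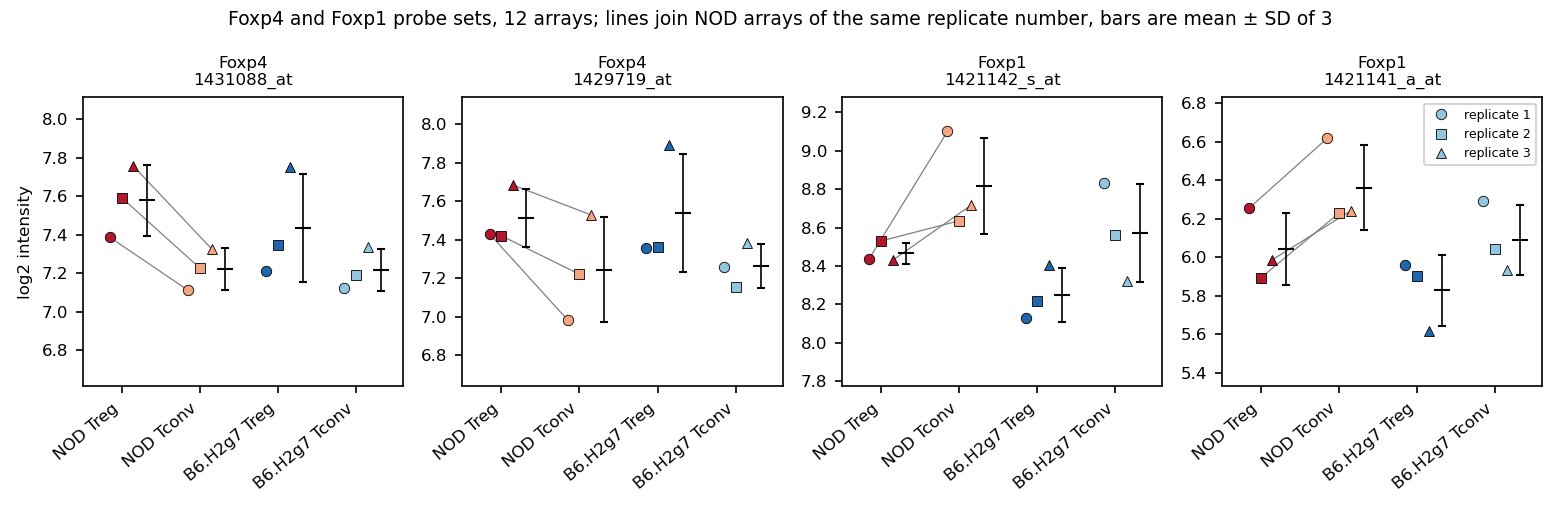
Log2 intensity (vertical axis) of 2 Foxp4 and 2 Foxp1 probe sets in the 4 groups (horizontal axis); points are arrays, grey lines join NOD arrays of the same replicate number, and bars are the mean ± SD of 3. The 4 shown have the lowest unadjusted p in the averaged comparison among the 18 probe sets other than Foxp3. In the Foxp4 panels every NOD line is higher at Treg and in the Foxp1 panels every NOD line is lower at Treg. Same-numbered B6.H2g7 arrays go the same way, except replicate 3 of Foxp1 1421142_s_at, but the numbers were not taken to pair them. The B6.H2g7 Treg and Tconv arrays overlap in all 4 panels, and the NOD arrays overlap for Foxp4 1429719_at and Foxp1 1421141_a_at.

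Foxo1 was measured by 4 probe sets and was the least variable of the 5 genes by its brightest one. That probe set, 1416983_s_at, had 12.75, 12.69 and 12.82 in NOD Treg, against 12.63, 12.59 and 12.73 in NOD Tconv. Its values in B6.H2g7 were 12.62, 12.73 and 12.70 in Treg, against 12.63, 12.66 and 12.59 in Tconv. All 12 values lay between 12.59 and 12.82, and the groups overlapped. The averaged difference was 0.08 ± 0.06 (SE, 95% interval -0.04 to 0.20, limma, adjusted p = 0.642). For this probe set alone, a difference of more than 0.20 on the log2 scale lay outside the interval. Over the 4 Foxo1 probe sets, the bounds of the averaged intervals reached from -0.53 to 0.28.

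The Foxo1 probe set 1416982_at had the widest spread of the 19. It had 11.50, 10.72 and 10.91 in NOD Treg, against 11.64, 11.20 and 11.05 in NOD Tconv. In B6.H2g7 it had 11.75, 11.08 and 10.87 in Treg, against 11.45, 11.41 and 10.82 in Tconv. Replicate 1 was the highest array of each group, and 3 of these 4 arrays, all but that of B6.H2g7 Tconv, had the lowest actin control difference of their group; its part in the spread was not tested. The differences of Treg minus Tconv were -0.26 in NOD and 0.00 in B6.H2g7 (limma, adjusted p = 0.882 in NOD and 0.998 in B6.H2g7). For 1416981_at they were -0.04 and 0.03, and for 1456529_at -0.12 and 0.07, in NOD and B6.H2g7.

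Foxo3 was measured by 3 probe sets, and the brightest had the largest difference of the 18. The probe set, 1434831_a_at, had 11.06, 11.45 and 11.44 in NOD Treg, against 10.41, 11.03 and 11.08 in NOD Tconv. The B6.H2g7 arrays read 10.99, 11.30 and 10.93 in Treg, against 11.08, 10.99 and 10.86 in Tconv. The lowest value of the 12 was NOD Tconv replicate 1, and the groups overlapped in both strains. In NOD the difference was 0.48 ± 0.18 (SE, 95% interval 0.09 to 0.86, limma, adjusted p = 0.274), and in B6.H2g7 it was 0.09 (-0.29 to 0.47, adjusted p = 0.924). Without NOD Tconv replicate 1 the NOD difference was 0.26. The difference between these was 0.38 ± 0.25 (SE, -0.16 to 0.92, adjusted p = 0.962). The other 2 Foxo3 probe sets differed by 0.12 (1434832_at) and 0.14 (1450236_at) in NOD, and by 0.15 and -0.08 in B6.H2g7. Pairs of Foxo3 probe sets correlated with r of at most 0.27 over the 12 arrays.

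Counted by overlap, 5 of the 18 probe sets separated the 3 NOD Treg from the 3 NOD Tconv arrays, against 17% of all probe sets. Among them 1 was higher in Treg, against 7.62% of all probe sets, Foxp4 1431088_at, and 4 were lower, against 9.36%, Foxp1 1435221_at, 1421140_a_at and 1421142_s_at and Foxo1 1456529_at. In B6.H2g7 there was none of the 18, against 15.1% of all probe sets. None of the 5 was called by limma.

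Between the strains, none of the 19 probe sets was called in Treg or in Tconv by limma. The lowest adjusted p was 0.731 in Treg, for Foxp1 1435222_at with a difference of 0.26 (NOD minus B6.H2g7; 0.05 without B6.H2g7 Treg replicate 3), and 0.587 in Tconv, for Foxp1 1421141_a_at with 0.27. In Treg, 2 probe sets separated the strains, against 13.7% of all probe sets: Foxp1 1421142_s_at was higher in the NOD arrays, as were 7.07% of all probe sets, and Foxo1 1456529_at was lower, as were 6.64%. In Tconv there was none of the 19, against 16.9%. The 95% intervals of the 18 other than Foxp3 reached from -0.77 to 0.63 in Treg and from -0.59 to 0.64 in Tconv. The difference between strains in the step from Tconv to Treg was likewise not called for any member, with values of the 18 from -0.34 to 0.38 and intervals from -1.07 to 0.92.

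**Figure D4:**
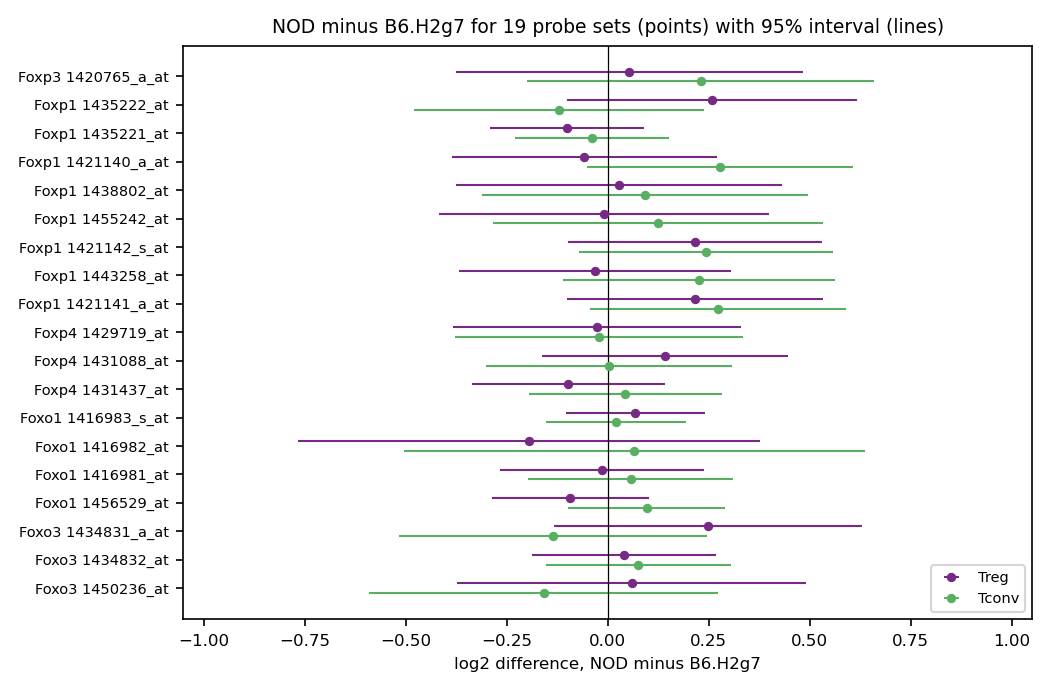
Log2 difference of NOD minus B6.H2g7 (horizontal axis) for the 19 probe sets (rows), in Treg and in Tconv; points are differences of group means over 3 arrays each and lines are 95% intervals from limma. Every interval includes 0, and the widest are those of Foxo1 1416982_at.

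The genes most like each member were taken by Pearson r over the 12 arrays among 15371 genes, as a description, since arrays share groups and processing. For Foxp3 these were Tnfrsf4 (0.996) and Il2ra (0.996), which encode the costimulatory receptor OX40 and CD25, then the glucose transporter gene Slc2a3 (0.995) and Slc35d1 (0.994). The arrays form 2 separate clusters for these genes, Treg and Tconv, and CD25 was the sorting marker. For Foxp1 they were Abtb2 (0.943), Pltp (0.916), Zfp35 (0.911) and Usp7 (0.889), and for Foxp4 Tmub2 (0.919), Xpo6 (0.914), Acrv1 (0.912) and Fbp2 (0.910). For Foxo1 they were Snw1 (0.910), Amotl1 (0.891), Phlpp2 (0.888) and Ctc1 (0.874), and for Foxo3 Ccdc28a (0.954), Pttg1ip (0.949), Glt8d1 (0.947) and Mcm6 (0.939). None of these 16 genes was called in the averaged comparison, nor were the 4 members they resemble.

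Related genes were described by their brightest probe set in the average over both strains, where 4.46% of the 18193 genes measured were higher in Treg and 3.03% lower, and the median difference was -0.01. Of 19 measured genes listed as raised by FOXP3, 18 rose, with a median of 1.80. Il2ra rose by 5.20 ± 0.07, the G protein-coupled receptor gene Gpr83 by 3.41 ± 0.11 and the semaphorin receptor gene Nrp1 by 3.21 ± 0.07 (SE, limma, adjusted p = 6.05e-13, 1.25e-09 and 9.72e-11 in that order). Of 14 measured genes listed as lowered by FOXP3, 9 fell, with a median of -0.65. The cAMP phosphodiesterase gene Pde3b fell by 3.28 on the log2 scale, Dapl1 fell by 2.72, Igfbp4 fell by 1.57 and Themis, a T cell receptor signalling gene, fell by 1.09. Both lists are textbook lists in part drawn from Treg and Tconv comparisons. Like the other lists here, they were chosen with earlier results of these data known. Their direction is therefore not independent evidence, and regulation by FOXP3 was not tested here.

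Among 28 measured partners of FOXP3, 9 rose and 4 fell. The Ikaros family genes Ikzf2, which encodes HELIOS, and Ikzf4, which encodes EOS, rose by 3.54 ± 0.13 and 3.36 ± 0.08, and Gata1 by 2.31 ± 0.13 (SE). Runx3 fell by 0.99 on the log2 scale, but its other probe set stood at 0.07 and was not called, as with Ikzf3, which rose by 0.82. Of 29 measured regulators of Foxp3, 8 rose and 2 fell. The IL-2 receptor chain gene Il2rb rose by 3.38 ± 0.11 and the nuclear receptor gene Nr4a3 by 1.04 ± 0.11, and the TGF-beta receptor gene Tgfbr2 fell by 0.91. The other probe sets of Nr4a3 and Tgfbr2 were not called.

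Around the FOXO factors the calls went both ways. Of 19 measured FOXO targets, 2 rose and 3 fell, with a median of 0.05. The homing receptor gene Ccr7 fell by 0.90 ± 0.09 on the log2 scale (SE, limma, adjusted p = 4.04e-05), the IL-7 receptor gene Il7r fell by 0.74 ± 0.08 (adjusted p = 6.24e-05) and the PI3K inhibitor gene Pik3ip1 fell by 0.91 ± 0.10 (adjusted p = 0.000103). Bcl6, a transcriptional repressor gene, rose by 0.52 ± 0.09 (SE, limma, adjusted p = 0.00341). The other probe sets of Bcl6 and Il7r stood at 0.09 and -1.21 and were not called. Of 28 measured regulators of FOXO, 4 rose and 3 fell, with a median of -0.04. Sgk1, which encodes a kinase that can phosphorylate FOXO proteins, fell by 1.98 ± 0.11, and Phlpp1, which encodes a phosphatase of AKT, rose by 1.60 ± 0.07 (SE, limma, adjusted p = 1.57e-07 for Sgk1 and 1.19e-08 for Phlpp1). Inpp4b, a phosphoinositide phosphatase gene, rose by 0.46 ± 0.10 (adjusted p = 0.0171), and without NOD Tconv replicate 2 it was not called (adjusted p = 0.0527); its other probe set stood at 0.29 and was not called. Without B6.H2g7 Tconv replicate 1, or without NOD Treg replicate 3, 2 of these regulators rose in place of 4.

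Some genes of these lists differed between the strains. In Treg 3.33% of the 18193 genes were called between the strains, and in Tconv 3.05%. Of the 28 regulators of FOXO, 3 were called in Treg and 3 in Tconv, all higher in NOD (Inpp4b, Sgk1 and Ywhaq in both). Of the 28 partners of FOXP3, 2 were higher (Runx3 and Hdac1) and 1 lower (Runx1) in NOD in Treg, and 3 were higher (Ikzf2, Irf4 and Hdac1) and 1 lower (Runx1) in Tconv. Of the 19 genes listed as raised by FOXP3, 4 were higher in NOD in Tconv (Tnfrsf18, Ikzf2, Gpr83 and Nrp1). Capg was lower in NOD in both cell types. Of the 14 listed as lowered by FOXP3, 2 were higher in NOD in Tconv (Il21 and Igfbp4) and 0 were called in Treg. Of the 19 FOXO targets, 1 was lower in NOD in Treg (Pik3ip1) and 0 were called in Tconv. These genes were named after their values were seen. Of the 29 regulators of Foxp3, limma called 0 in both, with 1 in Treg and 3 in Tconv at an unadjusted p under 0.05. Sgk1 was higher in NOD by 0.73 in Treg (limma, adjusted p = 0.0221) and 0.95 in Tconv (adjusted p = 0.00385), and Inpp4b by 1.24 (adjusted p = 0.000244) and 0.89 (adjusted p = 0.00336). The RUNX factor gene Runx1 was lower in NOD, with -0.99 in Treg and -0.99 in Tconv, and the histone deacetylase gene Hdac1 was higher, with 1.31 and 0.79. Each strain difference of a list gene rests on its brightest probe set alone. Other probe sets are not shown for the strains, and probe sequences were not used. For the difference between strains in the step from Tconv to Treg, 0.11% of the genes were called. Of the 7 lists only Capg, an actin-capping protein gene listed as raised by FOXP3, was among them (-0.77, NOD minus B6.H2g7, limma, adjusted p = 0.0467). That value lies close to the threshold. Capg was not followed through the alternatives in this comparison, and its other probe set is not shown for it.

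**Figure D5:**
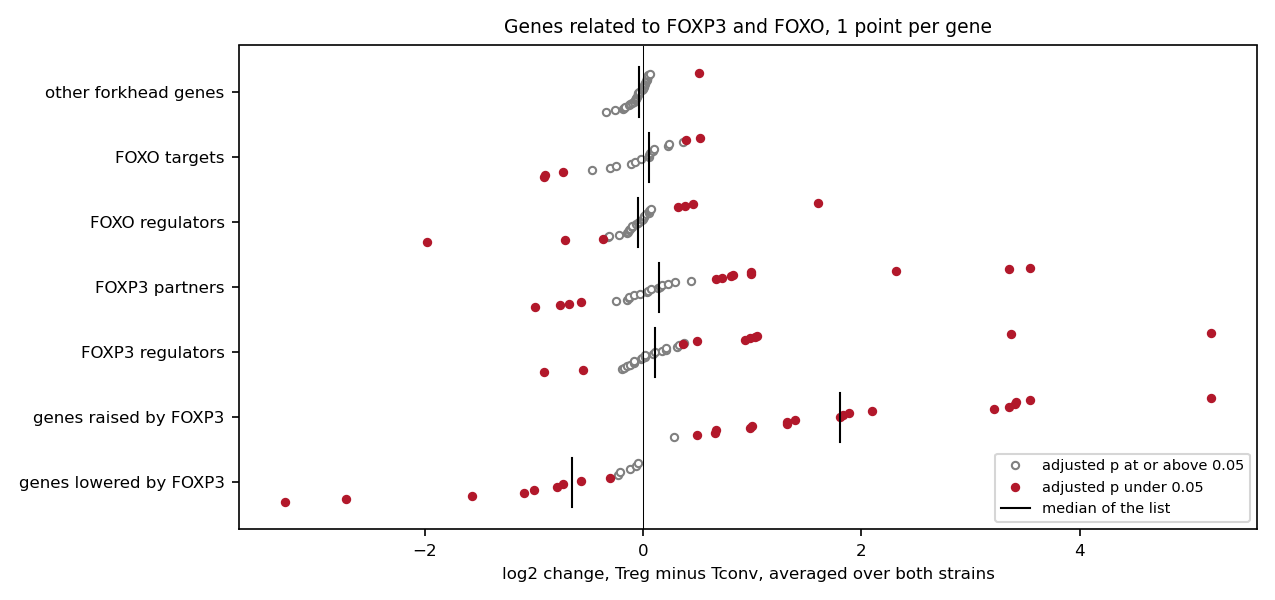
Log2 difference of Treg minus Tconv averaged over both strains (horizontal axis) for the measured genes of 7 lists (rows), 1 point per gene by its brightest probe set; filled points passed the test at an adjusted p under 0.05 and the vertical bar is the median of the list. The median is 1.80 for genes listed as raised by FOXP3 and -0.65 for genes listed as lowered by FOXP3, and lies between -0.04 and 0.15 for the other 5 lists.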

How the data were processed

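The deposited values are linear intensities, 1 per probe set and array, after the authors' RMA normalization, per the submitters' processing notes. The RMA software is not given in the sources used. RNA was amplified in rounds before labelling, per the labels' protocols. The values were put on a log2 scale without pseudocount or filter, and 64 control probe sets of 45101 were left out. Of the 45037 tested, 34945 name 1 gene, 932 several and 9160 none. A gene was represented by its brightest probe set, which gave 18193 genes. All 19 member probe sets matched RefSeq by Entrez ID, with 0 symbols changed.

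Tests used limma 3.58.1 in R 4.3.3 (1 mean per group, all 12 arrays, eBayes) with Benjamini-Hochberg adjustment over all 45037 probe sets and a threshold of 0.05, and were tested on simulated data. With 3 arrays a group, the smallest p of an exact permutation test is 0.1. The members and lists were chosen with earlier results of these data known. The text names every member probe set. From each list it names the 4 genes of smallest p in the averaged comparison and 2 in the strain difference. Some of these are left out for brevity. Genes named only for a call between the strains, Runx1 and Hdac1 among them, were chosen after their values were seen. The pools of a group are described as independent in the series text, and p-values measure the spread between these arrays.

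Replicate numbers were taken to pair arrays where the deviations of every same-numbered pair correlated above 0.1. Arrays of different numbers were not compared, so this rule cannot show what the numbers mark. The part of the actin control difference in these correlations was not tested, and the main fit used no pairing. The correlations were 0.56, 0.31 and 0.40 for NOD Treg and Tconv, and 0.67, 0.34 and 0.30 for NOD and B6.H2g7 Treg. For B6.H2g7 Treg and Tconv they were 0.52, -0.08 and 0.50, and for NOD and B6.H2g7 Tconv 0.44, -0.04 and 0.20. Alternatives were the replicate block, only the arrays compared, array weights, an intensity trend, quantile or median scaling, a pseudocount of 16, a filter at the 25th percentile, the actin difference as a covariate, and leaving out each array or the 4 numbered 1.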

Additional observations from a re-analysis of the deposited data

How the results depend on the processing

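Foxp3 was called in Treg against Tconv under every alternative run, with changes of 4.81 to 5.33 in NOD, 4.94 to 5.53 in B6.H2g7 and 4.87 to 5.34 in the average, and it was called in no comparison of the strains. Of 2340 values of the other members under alternatives, 13 were called, from 5 probe sets of Foxp1 and Foxp4, and all kept their sign. The count of called member probe sets, 1 in each Treg against Tconv comparison, was 2 in NOD with the replicate block and 3 in B6.H2g7 with array weights. In the average it was 5 with the replicate block, 4 with array weights and 3 with the actin covariate, and 1 to 2 when each array was left out in turn. The 5 under the block were Foxp3, Foxp1 1421142_s_at and 1421141_a_at, and Foxp4 1429719_at and 1431088_at (limma, adjusted p = 0.0499, 0.0144, 0.0346 and 0.0131 for the last 4, in that order). The numbers were not taken to pair all arrays of this comparison, so the block is one more setting there. The calls over all 45037 probe sets grew under these settings too. In NOD 1346 were higher and 1016 lower with the block, against 941 and 502 in the main fit. In B6.H2g7 they were 1775 and 1685 with array weights, against 917 and 602. In the average they were 2066 and 1763 with the block, against 1552 and 1080. There, array weights gave 2404 and 2392, and the actin covariate 2290 and 1848. The cause of these moves was not tested. With the replicate block or array weights, 5 FOXO targets fell in place of 3. Among other forkhead genes, 1 to 2 fell in place of 0 with the replicate block, array weights, quantile scaling or the actin covariate, or without B6.H2g7 Tconv replicate 3. No called value changed sign. Values that were not called did so in 168 cases over the 19 probe sets, 6 of them for Foxp3 between the strains, where the difference in Treg ranged from -0.10 to 0.24 and the difference between the rises from -0.40 to 0.01. The block changed no other call in NOD Treg against Tconv or in NOD against B6.H2g7 Treg among the members. Deposited values hold no detection calls, so how far the dimmer probe sets exceed background is unknown.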

Other observations

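Among 32 other measured forkhead genes, 1 was called in the averaged comparison, where 4.46% of all genes were higher and 3.03% lower. It was Foxn3, which encodes a forkhead factor known as a transcriptional repressor. Its brightest probe set, 1434002_at, had log2 intensities of 9.66, 9.43 and 9.51 in NOD Treg, against 9.53, 9.58 and 9.44 in NOD Tconv. Its values in B6.H2g7 were 11.06, 10.60 and 10.62 in Treg, against 9.87, 9.92 and 9.49 in Tconv. The 3 B6.H2g7 Treg arrays lay above the other 9. The difference of Treg minus Tconv was 0.02 ± 0.14 in NOD (SE, limma, adjusted p = 0.992) and 1.0 ± 0.14 in B6.H2g7 (adjusted p = 0.00105). In Treg, NOD minus B6.H2g7 was -1.23 ± 0.14 (adjusted p = 0.000216). The strain difference in the step from Tconv to Treg, -0.98 ± 0.20 (SE), did not pass the test (adjusted p = 0.215), and under 21 alternatives it was called in 3, with adjusted p from 0.03 to 0.591. A second probe set of Foxn3, 1438255_at, gave 0.11 in NOD and 1.21 in B6.H2g7, and -1.10 for that difference (adjusted p = 0.195). The probe set 1436925_at gave -0.07 in NOD, 0.92 in B6.H2g7 and -1.18 for NOD minus B6.H2g7 in Treg. The last was not called (adjusted p = 0.0538), but was called in 10 of 22 alternatives. The remaining one, 1453094_at, gave -0.08 in NOD, 0.31 in B6.H2g7 and -0.35 for NOD minus B6.H2g7 in Treg, and was called in none of the 6 comparisons. The fit shares the B6.H2g7 Treg arrays between these comparisons.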
